A study of Mus musculus with 9 samples.

Results

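The colony-stimulating factor receptor Csf1r was followed together with its ligands Csf1 and Il34 and with the related receptors Csf2ra, Csf2rb and Csf3r, 6 genes in all, in the mouse cells of the tumor microenvironment (TME) of human glioblastoma grown in mouse brain. The 6 genes were taken by symbol from the count table of every sample, and all 6 were listed in all 9 tables, out of 33274 symbols listed in any table and 12580 listed in each. The samples were brains of Nude mice, which lack T cells but keep B and NK cells. They comprised 1 brain without tumor (Nu-NB), 7 patient-derived orthotopic xenografts (PDOXs) of untreated mice (named P3, P8, P13, T16, T101, T192 and T233) and 1 PDOX of a mouse given temozolomide (P3TMZ), an alkylating drug. Per the study's methods the hosts were female, organoids made from patient tumors were implanted in the frontal cortex, T192 and T233 came from tumors of the same patient, and tumors were collected at the endpoint. The labels used here give no mouse age. Mouse cells of Nu-NB and P8 were sorted by flow cytometry and those of the other 7 samples were separated with magnetic beads, so that the only brain without tumor shared its sort with 1 PDOX alone.

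CSF1R is a receptor tyrosine kinase on which microglia, the resident macrophages of the brain, depend for survival, and both CSF1 and IL34 bind it. In the normal brain IL34 is known mainly from neurons and CSF1 mainly from glia. The GM-CSF receptor pairs the ligand-binding chain CSF2RA with the common beta chain CSF2RB, which also serves the IL3 and IL5 receptors, and CSF3R is the receptor of G-CSF, the cytokine that drives neutrophil production.

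Drop-seq, in which single cells are captured in droplets with barcoded beads, gave 33998 barcodes, of which 760 to 2916 per sample passed filters on genes and mitochondrial reads. The files held 1294068 to 8410580 unique molecular identifiers (UMIs, one for each captured transcript) per sample, and the median of the cells that passed was 521 to 1303 per sample. No pair of libraries shared more than 5 barcodes of cells that passed the filters on genes and mitochondrial reads. Cells were clustered without the 6 genes and classed from marker genes, which left, after a doublet step, 4554 myeloid-like cells, 2928 astrocyte-like, 2201 endothelial-like, 1028 OPC-like (oligodendrocyte precursor), 687 mural-like (pericytes and smooth muscle of vessels) and 123 fibroblast-like cells, beside smaller classes. A further 982 cells lay in clusters that held markers of more than 1 class and are called mixed, and 1506 lay in clusters that stayed unnamed. A cluster of 996 cells, split into unnamed and cycling-like parts, led with Hist1h4c, Tubb3 and predicted genes with Gm symbols. Its cycling-like parts held 126, 88 and 35 cells. Another, of 694 unnamed cells, had Rab3ip, Cnot2, Cand1, Frs2, Egfr and Mdm2 among its leading genes. Whether all cells of these 2 clusters are mouse cells was not tested. Levels are given as CPM, in which the UMIs of a gene are summed over the cells of a class in a sample and scaled to the total UMIs of those cells, and each PDOX mean is over samples with at least 10 cells of the class. All 11 markers of the myeloid list were measured, and their summed level was 27598 to 40831 CPM in myeloid-like cells of the PDOXs and 35965 CPM in Nu-NB.

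The genes lie apart in the genome except for one pair (mouse build GRCm38, GENCODE annotation). Csf1 is at chr3:107741048-107760469 on the minus strand and Il34 at chr8:110741829-110805924 on the minus strand. Among the receptors, Csf3r is at chr4:126024550-126044440 and Csf2rb at chr15:78325752-78353847, both on the plus strand, and Csf2ra is at chr19:61223957-61228429 on the minus strand. Csf2rb lies beside its near-identical copy Csf2rb2 (chr15:78282507-78305721, minus strand), so the division of reads between these 2 genes is uncertain.

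The promoters of 1 ligand and 2 receptors are shown, since Csf1, Csf2ra and Csf3r were the only members with a promoter entry. Each window runs from 250 bases before to 50 bases after the RefSeq start (GRCm38.p6), 5′ to 3′ on the strand of the gene. The windows are chr3:107760420-107760719 for Csf1, chr19:61228369-61228668 for Csf2ra and chr4:126024409-126024708 for Csf3r. Capitals mark GAGGAA or its reverse complement TTCCTC, a run of letters that PU.1 (encoded by Spi1), a transcription factor of macrophages, can bind. Of 32851 promoters of this length, 9289 (28.3%) hold these letters on at least 1 strand.
Csf1 promoter: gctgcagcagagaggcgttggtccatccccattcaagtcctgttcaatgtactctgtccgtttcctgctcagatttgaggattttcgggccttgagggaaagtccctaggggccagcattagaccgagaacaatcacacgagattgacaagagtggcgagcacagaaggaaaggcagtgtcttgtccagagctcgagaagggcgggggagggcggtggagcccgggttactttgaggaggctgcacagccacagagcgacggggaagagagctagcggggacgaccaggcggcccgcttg
Csf2ra promoter: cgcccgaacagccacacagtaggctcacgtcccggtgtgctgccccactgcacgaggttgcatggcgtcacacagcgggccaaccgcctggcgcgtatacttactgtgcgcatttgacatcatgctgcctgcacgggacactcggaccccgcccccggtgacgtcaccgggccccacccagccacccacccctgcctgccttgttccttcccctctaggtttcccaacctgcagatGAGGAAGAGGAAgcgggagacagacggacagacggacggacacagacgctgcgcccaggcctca
Csf3r promoter: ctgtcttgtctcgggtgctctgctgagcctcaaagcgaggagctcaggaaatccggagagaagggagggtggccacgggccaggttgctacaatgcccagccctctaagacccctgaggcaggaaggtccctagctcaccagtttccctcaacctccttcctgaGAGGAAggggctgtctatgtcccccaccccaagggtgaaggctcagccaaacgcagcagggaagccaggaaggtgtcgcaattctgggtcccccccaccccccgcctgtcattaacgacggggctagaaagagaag
The Csf1 window holds 0 full matches, the Csf3r window 1 and the Csf2ra window 2. A match describes the letters only, and the shorter GGAA that it contains also occurs in the Csf1 window. Spi1 itself was at 212 CPM in myeloid-like cells of Nu-NB and at a mean of 200.2 CPM in those of the 7 PDOXs.

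Csf1, the ligand that also drives macrophage growth outside the brain, was detected in every class named above. Myeloid-like cells held most of its UMIs in 4 of the 7 PDOXs, and astrocyte-like cells did in the brain without tumor. Of 3111 Csf1 UMIs in the 9 samples, 57.6% were in myeloid-like cells, which held 35.4% of all UMIs, 19.8% in mixed clusters, 7.30% in endothelial-like, 6.49% in astrocyte-like, 4.18% in mural-like and 2.96% in OPC-like cells. In Nu-NB, 51 of 62 Csf1 UMIs (82.3%) lay in astrocyte-like cells and 9 in myeloid-like cells. The share in myeloid-like cells was 83.1% in T192, 74.7% in P8, 70.0% in T233, 53.7% in T101, 36.2% in P3 (where endothelial-like cells held 43.1%), 14.3% in P13 and 8.86% in T16, and it was 82.1% in P3TMZ. T16 and P13, the PDOXs with the lowest shares, had 46.8% and 53.6% of their Csf1 UMIs in mixed clusters. These shares follow the number of cells of each class as well as the level per cell.

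**Figure D1:**
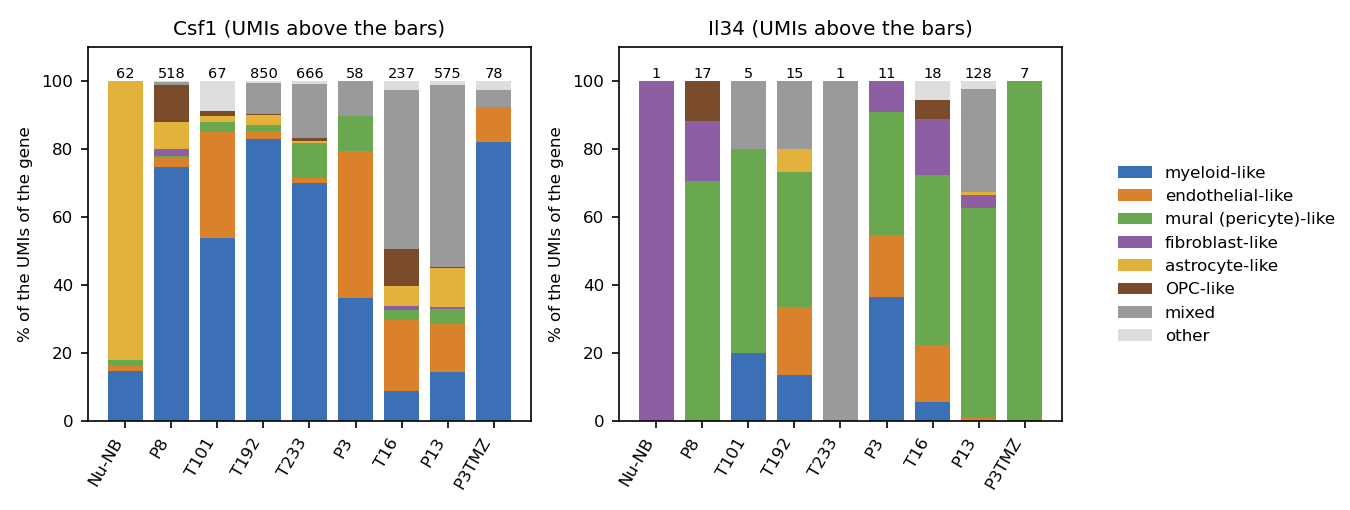
Percent of all Csf1 UMIs (one panel) and all Il34 UMIs (the other panel) of each sample that lay in each cell class, as stacked bars, with the number of UMIs of the gene above each bar. Csf1 in Nu-NB was 82.3% astrocyte-like, whereas myeloid-like cells held 83.1% in T192, and P13 carried 128 of the 203 Il34 UMIs.

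Per class, the mean Csf1 level over the PDOXs was 186 ± 136 CPM in myeloid-like cells (SD, n = 7), 141 ± 82.9 in fibroblast-like cells (n = 3), 140.2 ± 170 in mural-like cells (n = 7), 92.4 ± 27.5 in endothelial-like cells (n = 7), 72.8 ± 26.5 in astrocyte-like cells (n = 6) and 69.0 ± 47.5 in OPC-like cells. Each pair of neighbors in this order overlapped in range, and Csf1 was higher in myeloid-like than in fibroblast-like cells in 3 of the 4 samples that held both. The mural-like mean rested on T233 at 518 CPM, and without that PDOX it was 77.2 CPM. Endothelial-like cells were the most even source, with 119 CPM in P8, 132 in T101, 78.6 in T192, 95.1 in T233, 99.9 in P3, 68.9 in T16, 53.9 in P13 and 58.1 in P3TMZ. Nu-NB had 1 Csf1 UMI in its 36 endothelial-like cells (57.5 CPM), so no level can be read there. In astrocyte-like cells the PDOXs had 30.01 to 102 CPM, and Nu-NB, with 83.8 CPM, lay inside that range.

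Il34, the other CSF1R ligand, was rare and was found mainly in vessel-associated cells. Only 203 Il34 UMIs were counted in all samples, of which 59.1% (120 UMIs) were in mural-like, 21.7% in mixed, 6.40% in fibroblast-like, 4.43% in endothelial-like and 3.94% in myeloid-like cells, and P13 alone carried 128 of them. These shares rest largely on P13, which held 79 of the 120 mural-like UMIs and 39 of the 44 in mixed clusters. In mural-like cells the level was 148 CPM in P8 (12 UMIs), 159 in T101 (3 UMIs), 43.3 in T192 (6 UMIs), 0 in T233, 59.8 in P3 (4 UMIs), 90.1 in T16 (9 UMIs), 120.0 in P13 (79 UMIs) and 198 in P3TMZ (7 UMIs). It was above the endothelial-like level in 7 of the 9 samples. In Nu-NB no Il34 UMI was found in 15 mural-like cells, which does not allow a comparison at this depth. Fibroblast-like cells had 60.8 CPM in P8, 144 in T16 and 95.1 in P13, from 3 to 5 UMIs each, and exceeded mural-like cells in 2 of 4 samples.

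The PDOX means of Il34 were 100.1 ± 42.0 CPM in fibroblast-like (n = 3) and 88.6 ± 58.0 CPM in mural-like cells (n = 7), against 3.71 in endothelial-like, 3.095 in myeloid-like, 0.918 in astrocyte-like and 0.881 in OPC-like cells. The fibroblast-like mean was the highest of the 7 classes compared, as it was for 17% of symbols with at least 100 UMIs (8.33% were highest in mural-like cells). Over the 3 PDOXs that held both classes the order turned, with 119 ± 28.9 CPM in mural-like cells, which were higher in 2 of the 3. Neuronal-like cells, the class from which IL34 is best known in the brain, gave 4 UMIs in 132 cells of 2 PDOXs (mean 23.8 ± 2.18 CPM). After each cell was thinned to 500 UMIs, the share of cells with an Il34 UMI was 5.08 ± 3.29% in mural-like and 7.81% in fibroblast-like cells of the PDOXs. In Nu-NB 0 of 325 thinned myeloid-like cells held one, which by the limit of 3 counts allows a share of cells with a UMI of up to 0.923%, and a single myeloid-like cell, in P3, held one in the PDOXs.

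Csf1r itself (chr18:61100598-61132149, plus strand) was highest in myeloid-like cells, and the other classes in which it was read also held UMIs of the myeloid marker genes. Of 16183 Csf1r UMIs, 70.2% were in myeloid-like cells, 23.2% in mixed clusters, 2.92% in mural-like and 0.562% in endothelial-like cells. The share varied between samples. Myeloid-like cells held 97.6% in P8 but 21.2% in T16 and 31.4% in P13, where mixed clusters held 59.6% and 61.8%. The mean PDOX level was 1178 ± 189 CPM in myeloid-like cells (SD, n = 7), followed by 529 ± 442 in mural-like, 226 ± 201 in OPC-like, 122 ± 106 in astrocyte-like, 106 ± 123 in fibroblast-like and 42.9 ± 34.2 in endothelial-like cells. The 5 genes Csf1r, Csf1, Csf2ra, Csf2rb and Csf3r had their highest PDOX mean in myeloid-like cells, as did 13.9% of symbols with at least 100 UMIs. Csf1r was above the mural-like level in the myeloid-like cells of 8 of 9 samples, although the ranges of neighbors in this order overlapped.

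**Figure D2:**
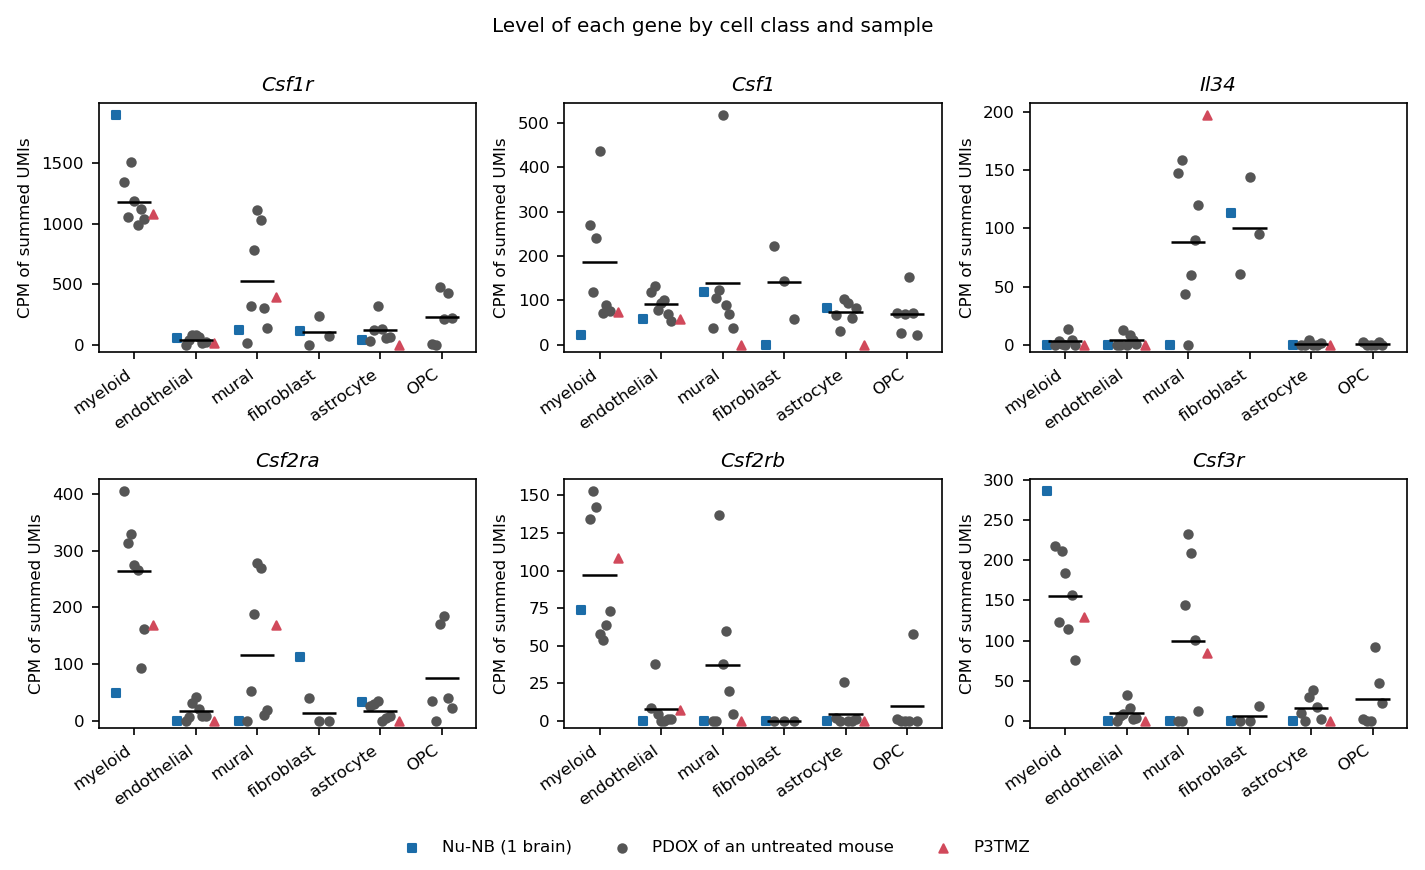
Level in CPM of each of the 6 genes (one panel each) by cell class, with 1 point per sample that held at least 10 cells of the class (blue squares, Nu-NB, grey circles, PDOXs, red triangles, P3TMZ) and a black line at the PDOX mean. Csf1r had a PDOX mean of 1178 CPM in myeloid-like and 529 CPM in mural-like cells, and Il34 had PDOX means of 88.6 CPM in mural-like and 100.1 CPM in fibroblast-like cells, against at most 3.71 CPM in the other 4 classes plotted.

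The summed myeloid markers themselves reached 739 to 32031 CPM in mural-like cells of the PDOXs, 481 to 10297 in OPC-like, 656 to 7284 in astrocyte-like, 810 to 9773 in fibroblast-like and 297 to 3932 in endothelial-like cells. Pooled over the PDOXs there were 36.9 Csf1r UMIs per 1000 myeloid marker UMIs in myeloid-like cells, and 32.8 in mural-like, 46.6 in astrocyte-like, 39.7 in OPC-like, 30.8 in endothelial-like, 27.3 in fibroblast-like and 40.5 in mixed cells. Over single PDOXs the myeloid-like ratio ran from 24.7 to 41.6, and the pooled values of 5 of these 6 other classes lay within that spread. Of the smaller classes, the pooled values of 3 lay above it, with 73.2 in cycling-like (15 Csf1r UMIs), 68.0 in choroid plexus-like (7 UMIs) and 52.8 in neuronal-like cells (15 UMIs). Single PDOXs ran from 0 to 80.0 in endothelial-like, 0 to 77.8 in OPC-like and 0 to 46.0 in fibroblast-like cells (9 Csf1r UMIs). The range was 33.3 to 55.8 in astrocyte-like, 16.7 to 35.5 in mural-like and 26.3 to 48.7 in mixed cells. In an alternative, only cells with at least 500 detected genes were kept, and these were clustered and classed anew. The mural-like Csf1r level was then 63.2 CPM instead of 529, and Csf3r was at 0 there. The part of the new classing in that drop was not tested. After thinning to 500 UMIs, 1.75% of endothelial-like cells of the PDOXs held a Csf1r UMI, against 40.7 ± 5.35% of myeloid-like cells. The mural-like share was 15.7 ± 19.9%, from 0 to 58.8% over the samples. The part of myeloid RNA in the Csf1r level of the other classes was not tested.

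Pooled over the PDOXs, the ratios of the ligands to Csf1r varied more between classes. Per 100 Csf1r UMIs there were 17.8 Csf1 UMIs in myeloid-like cells of the pooled PDOXs, and 248 in endothelial-like, 189 in fibroblast-like, 87.3 in astrocyte-like, 47.2 in OPC-like, 28.2 in mural-like and 16.6 in mixed cells. Single PDOXs moved some of these values, since without P8 the ratio was 18.7 in OPC-like and 66.7 in fibroblast-like cells, without T16 it was 169 and 350.0, and without T192 it was 131 in astrocyte-like cells. Among samples with a Csf1r UMI in the class, the ratio was above that of the myeloid-like cells of the same sample in 8 of 8 for endothelial-like, 7 of 7 for astrocyte-like, 7 of 9 for mural-like, 4 of 5 for OPC-like and 2 of 3 for fibroblast-like cells. Csf1r was lower in these classes, so any gene less confined to myeloid-like cells has a higher ratio there. The share of all genes with such an order was not computed. For Il34 the pooled ratio was 0.0828 per 100 Csf1r UMIs in myeloid-like cells, 10.2 in endothelial-like, 24.7 in mural-like and 122 in fibroblast-like cells. Without P13 the mural-like ratio was 9.37, without T16 the fibroblast-like ratio rested on 8 Il34 against 4 Csf1r UMIs, and without P3 the myeloid-like ratio was 0.0427. It exceeded the myeloid-like ratio in 7 of 9 samples for mural-like, 3 of 3 for fibroblast-like and 4 of 8 for endothelial-like cells.

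**Figure D3:**
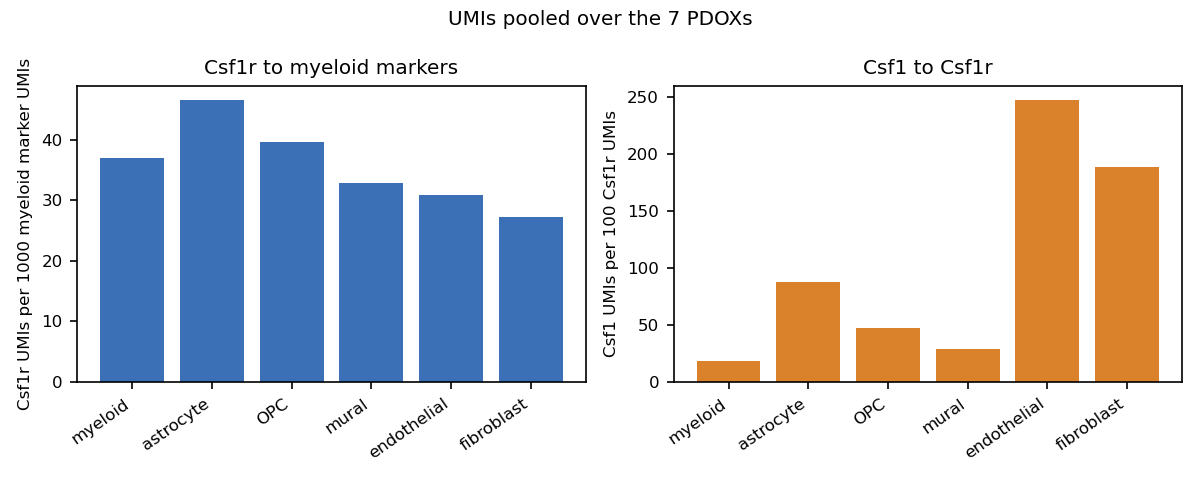
Bars give, for UMIs pooled over the 7 PDOXs, Csf1r UMIs per 1000 myeloid marker UMIs (one panel) and Csf1 UMIs per 100 Csf1r UMIs (the other panel) in 6 cell classes. The first ratio ran from 27.3 to 46.6 over these classes, while the second ran from 17.8 in myeloid-like to 248 in endothelial-like cells.

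Pooled over the samples, the related receptors had most of their UMIs in the myeloid-like class, but not in every sample. Csf2ra, the ligand-binding chain for GM-CSF, had 76.1% of its 3133 UMIs in myeloid-like cells, Csf3r, the G-CSF receptor, 72.6% of 2137, and Csf2rb, the common beta chain, 72.0% of 1325. In T16 and P13 mixed clusters held most of the UMIs of each. The myeloid-like shares there were 22.4% and 38.6% for Csf2ra, 19.2% and 28.8% for Csf3r, and 15.6% and 30.9% for Csf2rb. The share was also 42.6% for Csf2ra in Nu-NB and 47.9% for Csf3r in P3. The PDOX mean of Csf2ra was 263 ± 105 CPM in myeloid-like and 117 ± 124 in mural-like cells, with 75.8 in OPC-like and under 20 in astrocyte-like, endothelial-like and fibroblast-like cells. Csf3r had 155 ± 53.1 CPM in myeloid-like cells, 99.8 ± 99.4 in mural-like and 27.3 in OPC-like cells. Csf2rb had 96.9 ± 44.1 CPM in myeloid-like and 37.0 ± 49.4 in mural-like cells.

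In the mural-like class these receptors kept ratios to Csf1r near those of the myeloid-like class, with 20.8 against 22.97 UMIs per 100 Csf1r UMIs for Csf2ra, 7.22 against 8.60 for Csf2rb and 18.2 against 13.7 for Csf3r. For Csf2ra the endothelial-like ratio was 42.0, and in Nu-NB its 47 UMIs lay with 20 in astrocyte-like and 20 in myeloid-like cells, that is, at 90.9 and 2.60 per 100 Csf1r UMIs. The myeloid-like level was above the mural-like level in 6 of 9 samples for Csf2ra, 8 of 9 for Csf2rb and 7 of 9 for Csf3r. In endothelial-like cells thinned to 500 UMIs, 0.832% held a Csf2ra UMI, 0.124% a Csf2rb UMI and none a Csf3r UMI.

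Within the myeloid-like class, Csf1r was highest in cells with homeostatic microglia markers in all 8 samples that allowed the comparison with inflammatory and activated cells, while the orders of the other members varied between samples. The 4554 cells fell into a homeostatic group marked by genes such as P2ry12 and Tmem119 (1335 cells, 632 of them from Nu-NB), an inflammatory group marked by Il1b and Cxcl2 (1070 cells, 693 from T192), an activated group marked by Spp1 and Cst7 (1088 cells, 444 from P8), cycling cells (172), a border-associated macrophage (BAM) group of 96 cells and a monocyte-derived group (193 cells, 115 from T101 and 52 from P13), with 600 cells given no single name. Levels are given over samples with at least 10 cells of a group. Of the cells with no single name, 1 cluster of 349 led with Ttr, Enpp2, Cldn5, Igf2 and Rgs5, genes known from choroid plexus, endothelial and mural cells. In the inflammatory group, 1 cluster of 347 cells with a median of 5628 UMIs had Gfap, Igfbp5 and Fabp7, which astrocytes express, among its leading genes beside Tnf and Il1b, and the part of these cells in the levels of that group was not tested. In the activated group, 1 cluster of 317 cells with a median of 2076 UMIs led with genes of ribosomal proteins. The groups were formed without the 6 genes, and differences between them are given without a test.

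Csf1r was at 1820 ± 314 CPM in the homeostatic group (mean and SD over 9 samples, 1320 to 2351 CPM), 1171 ± 217 in the inflammatory group (8 samples), 1029.9 ± 211 in the activated group (8 samples), 1054 ± 411 in cycling cells (5 samples), 807 ± 60.3 in the BAM group (3 samples) and 263 ± 51.6 in the monocyte-derived group (2 samples, 226 CPM in T101 and 299 CPM in P13). The homeostatic level was above the inflammatory and above the activated level in 8 of 8 samples each, which held for 0.84% and 1.29% of symbols with at least 100 UMIs. It was also above the cycling level in 5 of 5 samples, the BAM level in 3 of 3 and the monocyte-derived level in 2 of 2. Csf3r also had its highest mean in the homeostatic group, with 218 ± 79.2 CPM in the homeostatic, 168 in the inflammatory, 130.2 in the activated, 69.2 in the cycling and 18.2 in the monocyte-derived group, and with 0 of 72648 UMIs in the BAM group of the 3 samples with at least 10 such cells (1 UMI was found in 6 BAM cells of T192). Its homeostatic level was above the inflammatory level in 5 of 8 samples and above the activated level in 5 of 8, so that order did not hold in every sample.

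**Figure D4:**
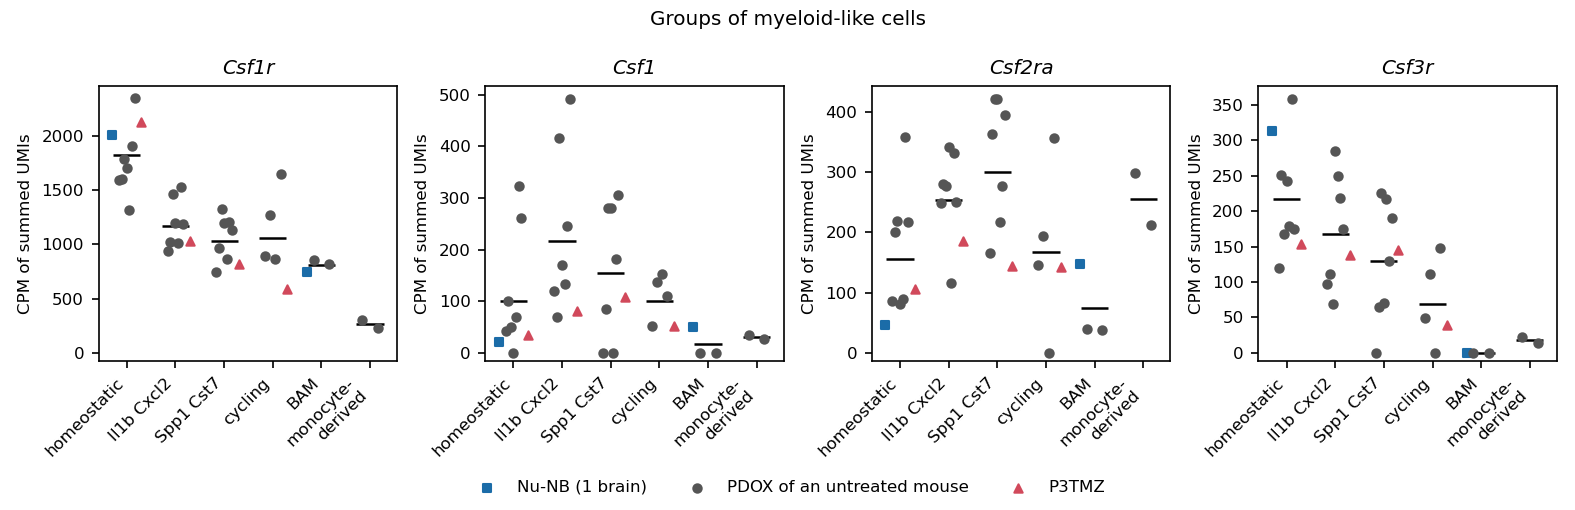
Level in CPM of Csf1r, Csf1, Csf2ra and Csf3r (one panel each) in the groups of myeloid-like cells, with 1 point per sample that held at least 10 cells of the group and a line at the mean of those samples. Csf1r had its highest mean in the homeostatic group (1820 CPM) and its lowest in the monocyte-derived group (263 CPM), whereas Csf1 had its highest mean in the inflammatory group (216 CPM).

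Csf1 was at 216 ± 158 CPM in the inflammatory, 155 ± 126 in the activated, 101.2 in the cycling and 100.5 ± 113 in the homeostatic group, against 30.6 in the monocyte-derived group and 16.5 in the BAM group (1 UMI). It was higher in the inflammatory than in the homeostatic group in 6 of 8 samples and higher in the activated group in 4 of 8, so neither order held in all samples. Csf2ra was at 301 ± 115 CPM in the activated, 256 ± 61.1 in the monocyte-derived, 254 ± 74.5 in the inflammatory, 168 in the cycling, 156 ± 100.2 in the homeostatic and 74.8 in the BAM group. Its activated and inflammatory levels were each above the homeostatic level in 7 of 8 samples, as were 2.35% and 5.06% of symbols with at least 100 UMIs in at least 7 of 8. Csf2rb had a mean of 161 CPM in the monocyte-derived group, from 253 in T101 and 69.1 in P13, with 102 in the cycling, 95.9 in the inflammatory, 77.7 in the activated, 75.7 ± 22.1 in the homeostatic and 45.9 in the BAM group. Without T101 the monocyte-derived level of Csf2rb lay below the means of all of these groups but the BAM group.

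Detection of the members in the same myeloid-like cells varied between samples. Among myeloid-like cells of T192 thinned to 500 UMIs, Csf3r was detected in 14.2% of cells with a Csf1r UMI and in 9.31% of the others, Csf2rb in 8.58% and 3.90%, and Csf2ra in 18.5% and 17.7%. In P8 each order was turned, with 7.14% and 10.7% for Csf3r, 6.04% and 6.98% for Csf2rb, and 13.7% and 14.4% for Csf2ra. Csf1 was detected in 18.4% of myeloid-like cells with a Csf1r UMI and in 16.5% of those without in T233, the PDOX with the highest Csf1 level, but in 8.24% and 10.2% in P8 and in 0.922% and 2.81% in P13. It was more frequent among cells with a Csf1r UMI in 4 of 9 samples, and no cell of P3 or P3TMZ held both. At this depth a cell without a UMI can still express the gene.

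The comparison of PDOXs with the brain without tumor addresses how these genes differ between the TME and the brain that holds no tumor. In myeloid-like cells, Csf1 and Csf2ra were higher in every PDOX than in Nu-NB, Csf1r and Csf3r were lower in every PDOX, and Csf2rb was not ordered. None of the 5 genes passed the test across all genes (edgeR's quasi-likelihood test, Benjamini-Hochberg adjusted p of at most 0.01 and a log2 fold change of at least 1), in which 1 of 9366 genes was called (0.0107%, 1826 at an unadjusted p under 0.05). That gene was Hbb-bt, a hemoglobin chain, which was lower and is named after its value was seen. With a single brain without tumor against 7 PDOXs, an exact permutation test of a single value cannot go below p = 0.125 (one-sided), and p-values measure the spread between these samples.

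Csf1 was at 22.2 CPM in myeloid-like cells of Nu-NB (9 UMIs, 95% exact Poisson interval 10.2 to 42.2 CPM, counting error only). In the PDOXs it was at 70.5 CPM at the lowest (P3), 119.7 at the median (T101) and 435 at the highest (T233), with a mean of 186 ± 136, and P3TMZ had 74.7. All 7 PDOXs were above Nu-NB, as were 14.3% of genes with at least 100 UMIs, and the PDOXs differed widely among themselves. The fitted log2 fold change was 3.47 (SE 1.18), with an adjusted p of 0.143 by edgeR. DESeq2 on the same counts called 263 genes (2.81%, with 2.28% higher in the PDOXs), Csf1 among them at a log2 fold change of 3.39 (SE 0.975, adjusted p 0.00725), so the call depended on the tool.

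Csf2ra was at 49.3 CPM in Nu-NB (20 UMIs) and at 405 in P8, 313 in T101, 330 in T192, 275 in T233, 265 in P3, 93.3 in T16 and 162 in P13, with 168 in P3TMZ. All 7 PDOXs lay above Nu-NB, T16 the nearest. The log2 fold change was 2.79 (SE 0.757, adjusted p 0.0906 by edgeR), and DESeq2 called it at 2.72 (SE 0.677, adjusted p 0.00164). Csf2rb, the chain that CSF2RA needs for signaling, was at 74.0 CPM in Nu-NB and at 53.7 to 153 CPM in the PDOXs, 3 of them above and 4 below. Its log2 fold change was 0.75 (SE 0.602, adjusted p 0.511 by edgeR).

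Csf1r was at 1899.8 CPM in Nu-NB (770 UMIs, 1768 to 2039 CPM by counting error) and at 1347 in P8, 1054 in T101, 1513 in T192, 1186 in T233, 987 in P3, 1119.6 in T16 and 1039.7 in P13, with 1077 in P3TMZ. All 7 PDOXs were below Nu-NB, as were 30.5% of genes with at least 100 UMIs, so that order alone does not set Csf1r apart. Scaled between samples, the log2 fold change was -0.32 (SE 0.379, adjusted p 0.674 by edgeR). Csf3r was at 286 CPM in Nu-NB and at 76.1 to 218 CPM in the PDOXs, all 7 lower, with a log2 fold change of -0.51 (SE 0.489, adjusted p 0.593 by edgeR). The log2 ratio of the unscaled Csf1r levels was -0.69. The median of all genes tested was 0.14 with scaling and -0.14 without it, and Csf1r lay below that median on both scales. P8, the PDOX that shared its sort with Nu-NB, had 1347 CPM of Csf1r, 269 of Csf1, 405 of Csf2ra, 134 of Csf2rb and 218 of Csf3r, each on the same side of Nu-NB as the PDOX mean.

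**Figure D5:**
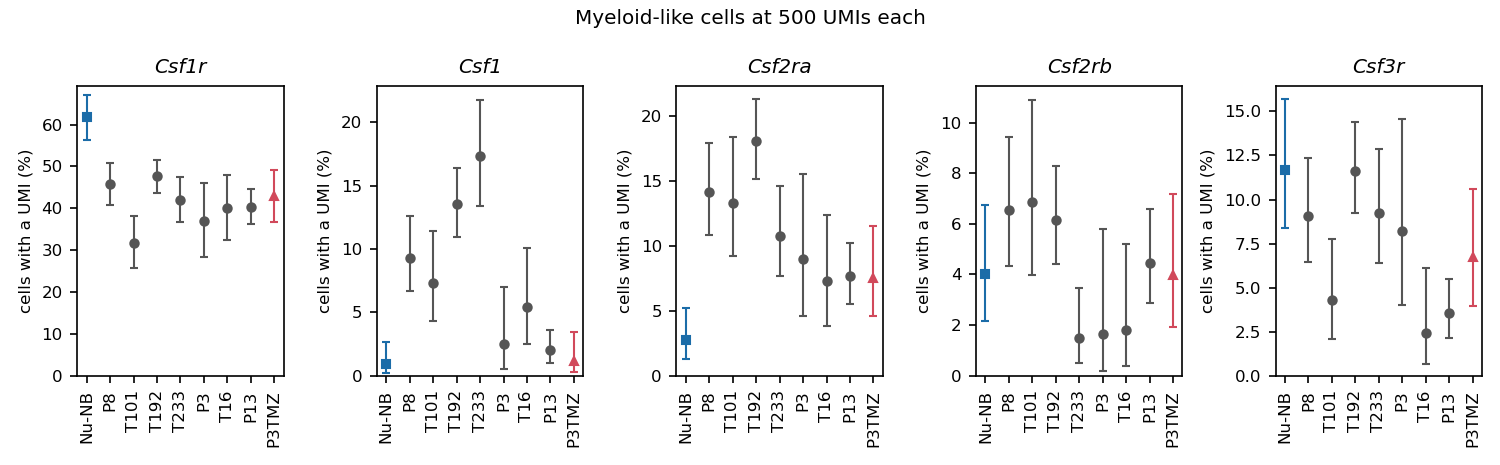
Percent of myeloid-like cells with at least 1 UMI of Csf1r, Csf1, Csf2ra, Csf2rb and Csf3r (one panel each) after every cell was thinned to 500 UMIs, for each of the 9 samples, with exact binomial 95% intervals that cover counting error only. Nu-NB had the highest Csf1r share (61.8%) and the lowest Csf1 (0.923%) and Csf2ra (2.77%) shares.

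At equal depth the shares of cells gave the same order of Nu-NB against the PDOXs for Csf1r, Csf1 and Csf2ra. In Nu-NB 61.8% of 325 myeloid-like cells held a Csf1r UMI (exact 95% interval 56.3 to 67.2%), against 31.8% in T101 at the lowest and 47.6% in T192 at the highest of the PDOXs. The Nu-NB share lay above all PDOXs. Thinning left out 356 of the 681 myeloid-like cells of Nu-NB and 7 (P13) to 425 (T192) of those of a PDOX, and without it the Csf1r share was 60.8% in Nu-NB, inside the PDOX range of 41.4 to 70.0%. Csf1 was found in 3 of 325 cells of Nu-NB (0.923%, interval 0.191 to 2.67%) and in 2.05 to 17.3% of cells in the PDOXs. Csf2ra was found in 2.77% of cells of Nu-NB (1.27 to 5.19%) and in 7.27 to 18.1% in the PDOXs. For Csf2rb the Nu-NB share of 4% lay inside the PDOX range of 1.49 to 6.87%. For Csf3r it was 11.7% (8.41 to 15.7%), against 2.42 to 11.6% in the PDOXs.

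Nu-NB and the PDOXs also differed in which myeloid groups they held, so the genes were compared inside the homeostatic group, with 632 cells of Nu-NB and 599 of the PDOXs. There Csf1r was at 2009 CPM in Nu-NB and at 1749 ± 321 CPM in the PDOXs, of which T233 was above and 6 were below, and the log2 fold change was -0.22 (adjusted p 0.837 by edgeR). Csf1 was at 21.6 CPM in Nu-NB and at 121 ± 122 in the PDOXs, from 0 in T101 to 323, with 6 of 7 above and a log2 fold change of 2.27 (adjusted p 0.326). Csf2ra was at 45.8 CPM against 179 ± 102, all 7 PDOXs above, with a log2 fold change of 1.80 (adjusted p 0.208). Csf3r was at 313 CPM against 213 ± 78.4, with 1 PDOX above and 6 below, and Csf2rb at 75.5 against 78.1 ± 24.4. In this fit 17 of 1452 genes were called (1.17%), none of them a member. When only cells with at least 500 detected genes were kept and classed anew, Csf1r was at 1539 CPM in 150 myeloid-like cells of Nu-NB. It was at 1169 in those of the PDOXs, with all 7 below. In those cells the log2 fold change of Csf1r between samples was 0.07 and that of Csf3r 0.14, both opposite in sign to the fits on all cells.

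Signaling genes around the receptor were read from a list of 35 genes, of which 33 could be tested in myeloid-like cells. By edgeR 0 of them were called and 6 had an unadjusted p under 0.05. DESeq2 called 1, Tyrobp, as higher. Their median log2 fold change was 0.15, beside 0.14 for all genes, and 20 lay above 0. Tyrobp, the adaptor DAP12 through which CSF1R signals in macrophages and which is also one of the myeloid markers, was at 757 CPM in Nu-NB and at 1630 to 4798 CPM in the PDOXs (mean 3391 ± 1503, log2 fold change 2.55, SE 0.828, adjusted p 0.128 by edgeR). Fgr, a Src-family kinase, was at 9.87 CPM against 62.1 ± 33.0 (18.6 to 106), and Cebpb, a transcription factor of myeloid activation, at 44.4 against 153 ± 49.6 (76.0 to 235), both higher in 7 of 7 PDOXs. Their log2 fold changes were 3.06 (adjusted p 0.138) and 2.15 (adjusted p 0.114) by edgeR. These genes were named for their large fold changes, so that order follows in part from the choice, and 14.3% of genes with at least 100 UMIs shared it. Other genes of the list were lower in the PDOXs. Maf was at 1673 CPM in Nu-NB against a PDOX mean of 379 (log2 fold change -1.81, adjusted p 0.167 by edgeR). Inpp5d was at 358 against 131 (-1.07, adjusted p 0.135 by edgeR).

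Outside the myeloid-like class the PDOXs were tested against Nu-NB in endothelial-like and astrocyte-like cells, in which the fit held Csf1 and Csf1r. By edgeR 0 of 6345 genes were called in endothelial-like cells (0%, 834 at an unadjusted p under 0.05, DESeq2 2 genes, 0.0315%) and 0 of 5849 in astrocyte-like cells (0%, 615 at an unadjusted p under 0.05, DESeq2 1 gene, 0.0171%). Csf1 had a log2 fold change of 1.54 (SE 1.10, adjusted p 0.636) in endothelial-like and -0.13 (SE 0.525, adjusted p 0.953) in astrocyte-like cells. Csf1r had 0.38 (SE 2.21, adjusted p 0.953) and 1.67 (SE 0.926, adjusted p 0.529). The astrocyte-like value of Csf1r was 0.83 without T192, 0.76 with no doublet step and 0.26 in cells with at least 500 detected genes. In endothelial-like cells Nu-NB held 1 UMI of each gene, and P3 was left out of the astrocyte-like fit because it had 3 such cells. Between cell classes the PDOX effect on Csf1 was not tested. Of the list of signaling genes 17 were tested in each class and 0 were called, with medians of 1.53 against 0.67 for all genes in endothelial-like and 1.22 against 0.03 in astrocyte-like cells. The summed myeloid markers of endothelial-like cells were at 805 CPM in Nu-NB against 297 to 3932 across PDOXs, and those of astrocyte-like cells at 506 against 656 to 7284, and their part in these medians was not tested.

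Temozolomide was given to 1 PDOX, so P3TMZ and P3 were compared as 2 libraries with no replicate and no test. In myeloid-like cells the ratio of P3TMZ to P3 was 1.09 for Csf1r (95% interval 0.956 to 1.25, counting error only), 1.06 for Csf1 (0.639 to 1.83) and 1.14 for Csf3r (0.768 to 1.72), none of which left 1. Csf2ra had a ratio of 0.634 (0.479 to 0.846), with 168 CPM against 265. Csf2rb had a ratio of 2.02 (1.18 to 3.68), from 93 UMIs against 16, and 3.87% of genes with over 3 UMIs in both libraries were at least 2-fold higher in P3TMZ (9.44% were at least 2-fold lower). The homeostatic group made up 28 of 220 myeloid-like cells in P3 and 104 of 332 in P3TMZ, and in it Csf2rb was at 100.1 CPM in P3 (2 UMIs) and 58.8 in P3TMZ (5 UMIs). In the inflammatory group, with 75 of the 93 UMIs of P3TMZ, it was at 52.7 CPM in P3 (9 UMIs) and 126 in P3TMZ. Over all myeloid-like cells the interval of Csf2ra lay below 1 and that of Csf2rb, the other chain of the GM-CSF receptor, above 1.

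In mural-like cells Il34 had a ratio of 3.30 (0.839 to 15.4), an interval that held 1, where 15.1% of genes were at least 2-fold higher. Csf1r had a ratio of 0.383 (0.199 to 0.686) in mural-like cells, where 7% of genes were at least 2-fold lower, and 0.214 (0.0240 to 0.901) in endothelial-like cells, from 2 UMIs against 17. In endothelial-like cells 5.49% of genes were at least 2-fold lower and 9.98% at least 2-fold higher. Myeloid markers stood at 16566 against 31571 CPM in the same mural-like cells and at 545 against 2326 CPM in the endothelial-like cells, and their part in these ratios was not tested.

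The ligands of the related receptors were listed in few tables. Csf2, which encodes GM-CSF, was listed in 2 of the 9 tables with 0 UMIs in the cells kept, Csf3, which encodes G-CSF, in 1 table with 3 UMIs in P13, Il5 in 1 table with 12 UMIs in P8, and Il3 in none. A symbol that is not listed is missing and was not taken as 0. Csf2rb2, the copy of Csf2rb that pairs with the IL3 receptor in mice, was at 19.7 CPM in myeloid-like cells of Nu-NB and at 31.7 ± 30.2 CPM in the PDOXs (log2 fold change 1.003, SE 1.09, adjusted p 0.641 by edgeR). Il3ra, the IL3-binding chain, had a log2 fold change of 2.95 (SE 1.43, adjusted p 0.279 by edgeR) at a PDOX mean of 13.2 ± 9.93 CPM. Of the 15 related genes, 5 could be tested in myeloid-like cells and 0 were called.

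Of the kinases in the family of CSF1R, KIT and the PDGF receptors had their highest levels in other classes, while Flt3 had at most 6 UMIs in the cells kept of any sample, which in T101 lay in 5 myeloid-like cells. Pdgfra was at 979 ± 504 CPM in OPC-like and 531 ± 75.6 in fibroblast-like cells of the PDOXs, Pdgfrb at 205 ± 193 in mural-like cells, and Kit at 58.4 in OPC-like and 25.4 in endothelial-like cells. Kitl, the ligand of KIT, was at 730 ± 305 CPM in endothelial-like cells of the PDOXs and at 1841 in Nu-NB, with a scaled log2 fold change of -0.44 (SE 0.480, adjusted p 0.679 by edgeR). Ptprz1, a phosphatase that also binds IL34, was at 2273 ± 652 CPM in OPC-like and 1928 ± 416 in astrocyte-like cells of the PDOXs and at 2138 in astrocyte-like cells of Nu-NB, that is, outside the classes in which Il34 itself was highest.

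The genes whose pattern was most like that of each member were ranked by Pearson correlation of log2(CPM + 10) over 59 sums of cells from 9 samples and 10 classes, as a description, since sums share libraries and depth. For Csf1r they were Itgam (r = 0.94), Ly86 (0.91), Ctss (0.91) and C1qb (0.91), all of them genes that macrophages are known to express. For Csf3r they were Lpcat2 (0.91), Gpr183 (0.90), C3ar1 (0.89), Ang (0.89) and Pla2g15 (0.89), for Csf2ra Cybb (0.88), Ms4a6c (0.84), Cd52 (0.83), Cst7 (0.83) and Coro1a (0.83), and for Csf2rb I830077J02Rik (0.88), Scimp (0.88), Lyz1 (0.86), P2ry6 (0.86) and Nfam1 (0.85). Il34 was most like Col3a1 (0.89), Cd248 (0.88), Foxs1 (0.86), Vtn (0.86) and Pde1a (0.84), among which Col3a1 is a fibrillar collagen and Cd248 a marker of pericytes and fibroblasts. Csf1 had the weakest likenesses of the 6, with Ctsh (0.71), Tmem50a (0.67), Lhfpl2 (0.67), Atp8a1 (0.67) and Lamp1 (0.66).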

How the data were processed

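Mouse cells of 9 samples were profiled by Drop-seq. The authors deposited, for each sample, a table of raw UMI counts per gene and barcode, made per the submitters' processing notes with bcl2fastq 2.0, STAR and the mm10 build, and nothing in these tables was normalized. No column was left unmapped (0). A barcode was taken as a cell from 200 genes upward if mitochondrial genes held no more than 30% of its UMIs, and the 5% of each sample with the highest doublet score (scrublet) were left out. Symbols listed in every table, without the 6 members and mitochondrial genes, were used to cluster cells in scanpy 1.11.5 (2000 variable genes, 30 principal components, 20 neighbors, leiden resolution 1, leidenalg 0.10.2). Clusters were named from marker lists, and those left unnamed, mixed or cycling were clustered once more. The naming rule was revised once with the clusters in view, before levels of the members were read. UMIs were summed per sample and class where at least 10 cells were present, and the sums of the 7 PDOXs were tested against that of Nu-NB in edgeR 4.0.16 (quasi-likelihood, TMM scaling, filterByExpr) over all genes. Genes were called at an adjusted p of at most 0.01 and an absolute log2 fold change of at least 1, and DESeq2 1.42.0 (R 4.3.3) was used as an alternative. Scripts were tested on simulated data. Equal-depth shares used cells thinned to 500 UMIs, with exact binomial intervals from scipy 1.17.1, and ratios of 2 libraries have exact conditional intervals. Intervals cover counting error only. Depth was 1294068 to 8410580 UMIs per table.

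The text names the 6 members, the related genes with at least 100 UMIs (Csf2rb2, Csf2 and Csf3 at any count), the 4 of the signaling list with the largest log2 fold change in myeloid-like cells among those at 50 CPM or more, and the 5 genes most like each member. Spi1, Il3, Il5, Flt3, Maf, Inpp5d and Hbb-bt were added outside this rule after their values were seen. Some genes that the rule names are not reported here. The members and lists were chosen with earlier results of these data known. Differences between classes, between myeloid groups and between P3TMZ and P3 were not tested. Positions are from GENCODE M21 and promoters from RefSeq, where 4 of the 7 genes searched (the members and Csf2rb2) had an entry. The split of PDOXs into growth types was not used, as the labels do not give it.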

Additional observations from a re-analysis of the deposited data

Results flagged for a closer look

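A sample stood apart from the rest of its group by Dixon's criterion in 9 of 46 groups of 4 to 10 samples, where chance alone marks about 1 in 20. For Csf1, T233 had 518 CPM in mural-like cells (69 UMIs in 31 cells), against 123 in the next PDOX, and the summed myeloid markers of that class were also highest there (32031 CPM, lowest 739). For Csf1r, T192 had 324 CPM in astrocyte-like cells (76 UMIs in 126 cells), against 133 in the next, and myeloid markers were at 7284 CPM there and at 656 to 3998 in the other PDOXs. For Csf2rb, T101 had 37.7 CPM in endothelial-like cells (6 UMIs, next 8.48), T192 had 25.6 CPM in astrocyte-like cells (6 UMIs, next 1.65) and T16 had 57.5 CPM in OPC-like cells (21 UMIs in 256 cells, next 1.27), where myeloid markers were at 10297 CPM, the highest of that class. The part of the myeloid markers in these values was not tested. For Il34, P3 had 13.4 CPM in myeloid-like cells (4 UMIs, next 4.24) and 23.4 CPM in the inflammatory myeloid group (4 UMIs in 40 cells, next 0.756), and T192 had 4.26 CPM in astrocyte-like cells from 1 UMI (next 1.25). For Csf2ra, T16 was low in the inflammatory group, with 116 CPM (7 UMIs in 28 cells) where the next lowest had 248.

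Csf2ra was higher than in Nu-NB in every PDOX in myeloid-like cells, with a log2 ratio of means of 2.42, and lower in every PDOX in fibroblast-like cells, with 40.5 CPM in P8 and 0 in the other 2. The fibroblast-like level of Nu-NB, 113 CPM, came from 1 UMI in 15 cells, and the difference between the classes was not tested.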

How the results depend on the processing

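Of 680 values recomputed under an alternative, 602 kept their direction and call or stayed within the replicate spread, 68 moved by more, 2 passed the threshold and 8 changed sign. DESeq2 called Csf1 (log2 fold change 3.39) and Csf2ra (2.72) in myeloid-like cells. It called 263 genes there, 2 in endothelial-like cells and 1 among the astrocyte-like. In myeloid-like cells 2 genes were called with no filter on low counts, 17 in the homeostatic group alone and 1 to 59 when 1 PDOX was left out (59 without P8, 2 without T101, 4 without T16). Leaving out 1 PDOX gave 0 to 0 genes in endothelial-like cells and 0 to 8 among the astrocyte-like (8 without P8), and no filter gave 14 there. The fit on the homeostatic group and fits with T192 and T233 summed as 1 sample were chosen after seeing the data, as were the ligand ratios without single PDOXs and the Il34 levels over matched PDOXs. Over the edgeR alternatives the adjusted p of Csf1 in myeloid-like cells was 0.111 to 0.326 and that of Csf2ra 0.0574 to 0.255. With only cells of at least 500 genes, clustered anew, the log2 fold changes of Csf1r and Csf3r in myeloid-like cells were 0.067 and 0.14. That of Csf1 in astrocyte-like cells was 0.33, or 0.15 with no doublet step. With cells classed one by one from their own marker UMIs, Csf1r was at -0.40 in astrocyte-like and -0.74 in endothelial-like cells, and Il34 in fibroblast-like cells was at 223 CPM. Csf1r in endothelial-like cells was at -0.15 to 0.52 without 1 PDOX, below 0 without T192 and at -0.10 without P3. For these values the cause was not tested. The endothelial-like fit with at least 500 genes was not run, since Nu-NB held too few such cells. Shares of cells followed the depth chosen. The PDOX mean of myeloid-like cells with Csf1r was 28.0% at 300 UMIs, 60.6% at 1000 and 56.2% unthinned. At 1000 UMIs and unthinned, the means were 15.5% and 16.2% for Csf1, 22.8% and 23.5% for Csf2ra, 8.46% and 10.9% for Csf2rb, and 14.0% and 16.3% for Csf3r. For Csf1 they were 7.17% and 6.93% in endothelial-like and 5.62% and 6.79% in astrocyte-like cells. Il34 was at 9.17% in mural-like cells unthinned and at 3.19% in fibroblast-like cells at 300 UMIs. No paired analysis was possible because Nu-NB is a single sample and the groups share fewer than 2 replicate numbers. Levels of Il34 rest on few UMIs, and a single brain without tumor, sorted like P8 only, limits every comparison with the PDOXs.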
